A study of Mus musculus with 4 samples.

Results

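The genes of the cytosolic ribosome were described in spatial RNA libraries of mouse brain sections from animals that lack Pdcd10 (also called CCM3) in brain endothelium and from controls. Members were chosen by symbol and by level: the symbol starts with Rps or Rpl and a digit, or is Rpsa, Rplp0, Rplp1 or Rplp2, and the mean over the 4 library sums is at least 5 CPM, the UMIs of a gene scaled to a library total of 1000000. Of 32285 genes in the files, 101 symbols have that start. Of these, 5 symbols containing -ps and 10 genes of the Rps6k kinase family were left out, and 3 fell under the level limit, which left 83 members, 34 named for the small subunit and 49 for the large one. Just outside the limit lay Rpl3l at 0.455 CPM, Rpl39l at 0.400 CPM and Rpl10l at 0 CPM, and the lowest members were Rps19bp1 at 38.1 CPM, Rpl7l1 at 47.5 CPM and Rps27rt at 53.1 CPM. Since level chose the members, it is given here as a description only. By function the label fits most of them, with exceptions: Rps19bp1 encodes a protein that binds ribosomal protein S19, Rpl7l1 encodes a nucleolar relative of ribosomal protein L7, and Rps27rt is a retrogene copy of Rps27. Fau and Rack1 encode ribosomal proteins under other symbols and are not members.

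The cytosolic ribosome has a small subunit, which reads the mRNA, and a large subunit, which joins amino acids and lets the growing chain out through an exit tunnel. Its proteins are made in matched amounts, and most of their mRNAs begin with a C and a run of pyrimidines, the terminal oligopyrimidine or TOP motif, through which mTORC1 and Larp1 control their translation. Several members have close relatives that can take their place, among them Rpl22l1 for Rpl22, Rps27l for Rps27 and Rpl36al for Rpl36a. Many members also have processed pseudogenes, so counts are uncertain where the counting could split reads between near-identical copies.

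The samples were 10 µm sections of fresh-frozen brain on 10x Visium slides, on which barcoded spots capture RNA from the tissue above them, and each spot can hold several cells. Control 1 and control 2 carried Pdcd10fl/fl without Cre. Knockout 1 and knockout 2 carried Slco1c1-iCreERT2;Pdcd10fl/fl, in which the Slco1c1 promoter drives a tamoxifen-inducible Cre in brain endothelial cells. All had received 50 µg of 4-hydroxytamoxifen into the stomach on postnatal day 1 and were studied at postnatal day 65. The labels disagree on oxygen: titles and design text give normoxia for every library, a treatment field gives hypoxia for the knockouts alone, and a protocol field gives 12% oxygen for 2 days for all, so an effect of oxygen and one of the deletion cannot be told apart. Whether a group's libraries stem from different animals is not stated, so p-values cover no more than the variation between these 4 samples, which could be technical. Spots with at least 1000 UMIs (unique molecular identifiers, counted once per captured molecule) numbered 2931 and 4096 for controls, 4599 and 4472 for knockouts, with 49445521 to 74125650 UMIs per library. The same barcodes recur in each library, since they belong to the slide design. Pdcd10 itself had 90.9 and 82.2 CPM in control libraries, and knockout libraries had 80.3 and 82.99 CPM; the groups overlapped, and whether the counted 3′ ends lie inside the deleted part is not given, so this level does not check the labels. Between groups, the summed levels of marker lists differed: oligodendrocyte genes stood at 9050 and 12639 CPM in controls and 5436 and 3994 CPM in knockouts (13 of 13 genes lower in both knockouts), reactive astrocyte genes at 183 and 205 against 1883 and 1800 CPM (12 of 12 higher), activated phagocyte genes at 3155 and 3687 against 5268 and 4896 CPM (15 of 16 higher), and neuron genes at 7511 and 6972 against 7645 and 8276 CPM (7 of 14 higher, 4 lower).

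Gene starts of members on GRCm38.p6 (the mm10 build) are shown for the genes to which the comparisons below return, since the TOP motif sits at the start. RefSeq's promoter table held 63 of the 83 members, with 74 starts. Each line gives 25 bases before and 25 bases from the annotated start onwards, 5′ to 3′ on the gene's strand, with the run nearest to the start that opens with C and goes on with at least 4 further C or T in capitals. Rpl4 lies at chr9:64173362-64173411 (plus strand), Rpl12 at chr2:32961687-32961736 (plus), Rpl35 at chr2:39005107-39005156 (minus), Rps12 at chr10:23787185-23787234 (minus), Rpl22l1 at chr3:28805483-28805532 (plus), Rps27 at chr3:90213624-90213673 (minus) and Rps27rt at chr9:114982715-114982764 (minus).
Rpl4: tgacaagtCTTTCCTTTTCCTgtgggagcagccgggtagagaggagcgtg
Rpl12: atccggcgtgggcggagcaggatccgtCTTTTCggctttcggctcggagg
Rpl35: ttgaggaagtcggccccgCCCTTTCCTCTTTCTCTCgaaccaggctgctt
Rps12: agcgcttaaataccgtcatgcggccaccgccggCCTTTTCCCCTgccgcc
Rpl22l1: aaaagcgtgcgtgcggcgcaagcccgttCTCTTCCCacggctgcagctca
Rps27: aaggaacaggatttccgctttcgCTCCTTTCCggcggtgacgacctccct
Rps27rt: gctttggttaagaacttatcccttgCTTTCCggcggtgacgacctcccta

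The runs span 13 bases at Rpl4, 18 at Rpl35, 11 at Rps12, 9 at Rps27, 8 at Rpl22l1 and 6 at Rpl12 and Rps27rt. That of Rpl4 ends before the annotated start, and those of Rps12, Rpl22l1 and Rpl12 begin after it. The runs of Rpl35 and Rps27 cross the start, and that of Rps27rt opens at it. Whether any of these runs is a TOP motif was not tested. Rps27 and its retrogene copy share 38 bases without a mismatch within 50 bases after their starts, from base 2 of Rps27 and base 1 of Rps27rt. Their counted 3′ ends were not compared, and counts of this pair are uncertain where those are alike. Within 15 bases on either side of the start, a C followed by at least 7 further C or T was present at 36.5% of member starts and at 9.26% of the 32851 starts in the table. With at least 4 further C or T the shares were 56.8% and 36.4%. Over 300-base windows and both strands, the ETS factor core CCGGAAG was found at 35.1% of member starts and 8.86% of all starts, the SP1 box GGGCGG at 62.2% and 35.7%, the YY1 core AAGATGG at 16.2% and 6.34%, and the TATA box TATAAA at 9.46% and 13.6%. These are matches of letters, not sites. The window of Rpl41 and 1 of the 2 windows of Rpl22 held no such run.

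Summed over kept spots, the 83 members held 6.92% and 6.64% of UMIs for controls, with 6.56% and 6.45% for knockouts. Small subunit members held 2.72% and 2.70% in controls against 2.62% and 2.54% in knockouts, and large subunit members 4.204% and 3.95% against 3.94% and 3.92%. Both knockouts lay below both controls in each of these shares. For the total and for the large subunit, the gap between the groups was smaller than the difference between the controls. Mitochondrially encoded genes took 7.43% and 11.4% of UMIs for controls, with 8.52% and 8.17% for knockouts, and with them left out of the total the member shares were 7.48%, 7.49%, 7.17% and 7.03%. In these last shares the gap between the groups was larger than the difference between the controls.

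The share differed between spots of different depth. In spots of 1000 to under 2500 UMIs members held 7.08% and 7.72% of UMIs in controls and 5.85% and 5.42% in knockouts. In spots of at least 20000 UMIs they held 6.58% and 6.51% in controls and 6.60% and 6.59% in knockouts, so the groups lay apart in shallow spots and within a narrow range in the deepest. The controls had no steady course between these ends: spots from 2500, 5000 and 10000 UMIs held 7.21%, 7.74% and 7.48% in control 1 and 6.77%, 7.12% and 6.91% in control 2. The same bins held 6.29%, 6.48% and 6.63% in knockout 1 and 5.97%, 6.15% and 6.31% in knockout 2. The deepest bin differed from the shallowest by -0.502 and -1.21 percentage points for controls, and by 0.757 and 1.17 percentage points for knockouts, a contrast that was not tested. Mitochondrial genes held 14.95% and 20.6% of UMIs in the controls' shallowest bin against 9.14% and 10.4% in that of the knockouts. Their part in the difference was not tested. With them left out of the total, members held 8.32% and 9.72% in the shallowest bin of controls and 6.43% and 6.04% in that of knockouts. In the deepest bin they then held 7.02% and 7.26% in controls and 7.14% and 7.09% in knockouts. The shallowest bin held 1.48%, 3.15%, 2.62% and 1.28% of library UMIs.

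**Figure D1:**
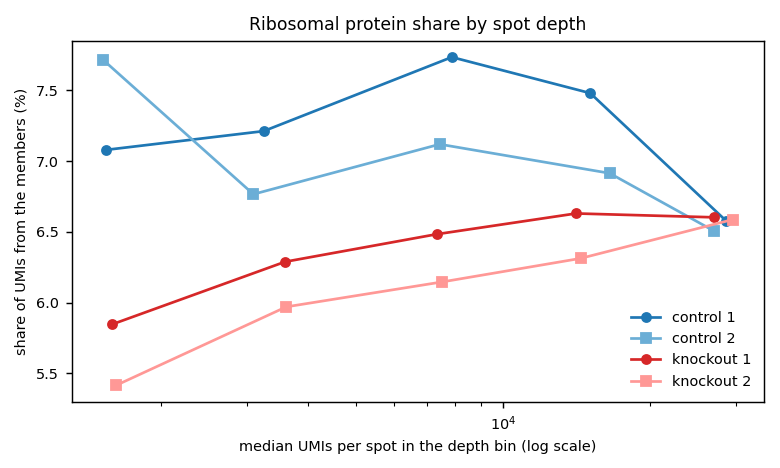
Share of UMIs from the 83 members (%, vertical axis, which does not start at 0) against the median UMIs per spot of 5 depth bins (log scale), with 1 line per library and no error bars, since each point is a sum over a bin. Controls lie at 7.08% and 7.72% and knockouts at 5.85% and 5.42% in the shallowest bin, and all 4 libraries lie between 6.51% and 6.60% in the deepest.

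Whole sections of knockouts and controls were compared next. A gene is called when edgeR's quasi-likelihood fit gives it a p under 0.05 after Benjamini-Hochberg adjustment over the 17546 genes that could be tested. Of the 83 members, all of which were tested, 12 fell and 1 rose, while over all genes tested 18.3% were called lower and 20.1% higher. Of the 5061 genes at least as highly expressed as the lowest member, 1265 were called lower and 649 higher. The members' median log2 fold change was -0.12, against -0.00 for all genes tested and -0.07 for the 5061 genes at least as highly expressed as the lowest member. Their spread was narrow: the standard deviation of the log2 fold changes was 0.148 over members, 0.405 over those 5061 genes and 0.844 over all genes. Changes smaller than 0.5 on the log2 scale made up 97.6% of members, 89.0% of the 5061 genes and 71.6% of all genes. Small subunit members had a median of -0.13, with 4 lower and 1 higher of 34, and large subunit members a median of -0.10, with 8 lower of 49. Both knockouts lay below both controls for 49 members and above them for 3, shares that stand beside 35.9% and 36.6% of all genes. In bulk sums such as these, fewer cells of a type and less RNA per cell cannot be told apart.

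**Figure D2:**
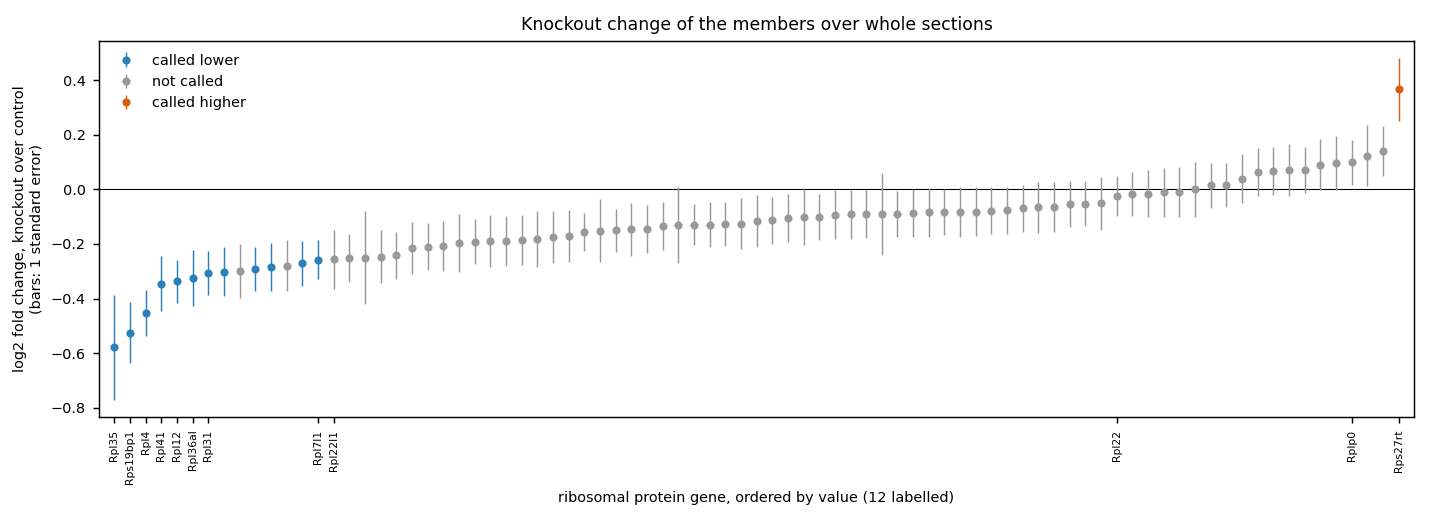
Log2 fold change, knockout over control (vertical axis), of each of the 83 members in whole sections, ordered by value and with 12 of them labelled, with bars of 1 standard error from the edgeR fit of 2 libraries per group. Rpl35 is lowest at -0.58 and Rps27rt highest at 0.37.

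Rpl4, a large subunit protein with an arm that lines the exit tunnel, had the smallest p among members. It stood at 749 and 734 CPM in controls and 522 and 562 CPM in knockouts, well apart, and fell by 0.45 on the log2 scale (SE 0.085, edgeR adjusted p = 0.0062). Rpl12, at the base of the stalk that receives elongation factors, stood at 540 and 528 CPM against 433 and 412 CPM and fell by 0.34 (SE 0.079, adjusted p = 0.014). Rpl31, near the tunnel exit, stood at 680 and 689 CPM against 557 and 550 CPM and fell by 0.31 (adjusted p = 0.021). In these genes the libraries of a group differed by less than the groups did. Rpl26, also near the exit, fell by 0.30 (1164 and 1185 against 985 and 923 CPM, adjusted p = 0.034), and Rpl41, which encodes the smallest ribosomal protein, fell by 0.35 (2412 and 2227 against 1842 and 1808 CPM, adjusted p = 0.032). Among small subunit genes, Rps12 and Rps20 fell by 0.27 and 0.28 on the log2 scale, with adjusted p-values of 0.036 and 0.040.

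Several of the changed members are not core subunits or are read with less certainty. Rps19bp1 stood at 50.4 and 39.8 CPM in controls and 30.3 and 32.2 CPM in knockouts and fell by 0.53 (SE 0.11, adjusted p = 0.010). Rpl7l1 stood at 54.0 and 49.6 against 44.2 and 42.4 CPM and fell by 0.26 (adjusted p = 0.027), while Rpl7, at 539 and 519 against 535 and 511 CPM, differed by -0.02. Rps27rt was the 1 member that rose, from 52.1 and 40.3 CPM to 58.3 and 60.6 CPM. The log2 fold change was 0.37 (SE 0.12, edgeR adjusted p = 0.042). Its counts are uncertain, since it is a copy of Rps27 and their 3′ ends were not compared. Rps27 itself stood at 1019 and 1349 against 1119 and 1044 CPM, with overlapping groups. Without control 2 or without knockout 2 the call of Rps27rt was lost, and without control 1 there were 3 members called higher.

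Rpl35 had the largest fold change and the widest gap between libraries of a group. It stood at 402 and 641 CPM in controls and 347 and 352 CPM in knockouts, a fall of 0.58 on the log2 scale (SE 0.19, adjusted p = 0.049). Control 2 lay far above the other libraries, and control 1 was closer to the knockouts than to control 2. The same order of the controls held for Rps29 (1674 and 2368 CPM, with 1822 and 1577 CPM in knockouts), Rps28 (813 and 1103, with 951 and 848 CPM) and Rps27, none of which passed the test. Over all members the control libraries differed by more than 0.25 on the log2 scale in 10 of 83, from -0.37 in Rps27rt to 0.67 in Rpl35 (control 2 over control 1), and the knockout libraries in none, with a range of -0.21 to 0.11. What sets control 2 apart in these genes was not tested.

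The stalk and the paralogue pairs showed no common direction. Rplp0, the base of the P stalk, stood at 352 and 373 CPM in controls and 404 and 372 CPM in knockouts (log2 fold change 0.10, SE 0.083), while its partners Rplp1 (-0.15) and Rplp2 (-0.25) had negative values, and none of the 3 passed the test. Rpsa, which also serves as a laminin receptor, differed by -0.19, Rps6, the substrate of S6 kinase, by -0.13, and Rpl10, which joins the large subunit late, by -0.15, without passing. Rpl22 was level across libraries at 296, 285, 285 and 286 CPM. Its relative Rpl22l1 stood at 692 and 570 CPM in controls and 525 and 532 CPM in knockouts (log2 fold change -0.26, SE 0.11, adjusted p = 0.099). Rpl36al fell by 0.32 (418 and 345 against 307 and 303 CPM, adjusted p = 0.042), and Rpl36a, at 466 and 458 against 422 and 422 CPM, differed by -0.13 without passing. Rps27l (-0.16), Rpl3 (0.06), Rpl39 (-0.08) and Rps4x (0.02) did not pass. The smallest differences were those of Rpl19 (-0.00), Rpl18 (-0.01) and Rpl6 (-0.01).

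The count of lower members depended on the libraries and the scaling. It was 19 without control 1, 23 without control 2, 2 without knockout 1 and 3 without knockout 2, 3 with library totals in place of TMM factors, 31 with every spot thinned to 1000 UMIs, and 5 with a replicate block. Library totals alone put the members' median at -0.04 and thinning put it at -0.22.

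Genes of the translation machinery around the ribosome moved in both directions, by lists chosen with earlier results of these data known. Their counts stand beside the 18.3% of all genes called lower and 20.1% called higher in this comparison. Of 9 elongation factors, 3 fell and the median was -0.16; Eef1a2, the neuronal elongation factor, fell from 313 and 273 to 205 and 193 CPM (log2 fold change -0.56, adjusted p = 0.0035), and Eif5a fell by 0.41. Of 37 initiation factors, 6 rose and 7 fell, with a median of 0.02: Eif4b and Eif5 rose by 0.48 and 0.45, and Eif2s1 and Eif3j1 fell by 0.51 and 0.43. Among 8 other TOP mRNAs, Pabpc1, the poly(A) binding protein, rose by 0.44, Nap1l1 fell by 0.23, and the median was 0.03. Of 35 ribosome biogenesis factors, 17 fell, with the smallest p in Rrp12 (17.1 and 16.2 against 10.0 and 9.96 CPM, log2 fold change -0.74) and Bop1 (-0.42), with a median of -0.23. Of 78 mitochondrial ribosomal protein genes, 41 fell and 1 rose (Mrps6, by 0.42), with a median of -0.27; Mrps25 and Mrps36 fell by 0.69 and 0.75. In the mTORC1 pathway list 8 of 22 rose, with the smallest p in Eif4ebp1 (0.69) and Ddit4 (0.58), an inhibitor of the pathway, and 2 fell, Rptor (-0.42) and Rheb (-0.25), with a median of 0.06. Fau (0.01) and Rack1 (0.04) did not pass the test. All these medians stand beside -0.00 for all genes tested.

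Spots of at least 5000 UMIs were next thinned to 5000 UMIs each, so that UMI totals were equal, and given a type by the highest score over 9 lists of regional genes, none of them members. Thinning does not equalise capture: median UMIs before thinning ran from 8774 in leptomeninges-list spots of knockout 1 to 29253 in hypothalamus and amygdala-list spots of knockout 2. Their part in the differences between types was not tested. Since the lists chose the spots, the level of their genes there is no check of the types. For every spot type both control values come before both knockout values below. Cortex-list spots had the lowest member share in controls, 5.92% and 5.68%, against 6.27% and 5.87%. Thalamus-list spots held 6.07% and 5.89% against 6.84% and 6.47%, striatum-list spots 6.64% and 6.40% against 6.55% and 6.27%, and hippocampus-list spots 6.88% and 6.31% against 6.08% and 5.78%. Higher shares in controls were seen in leptomeninges-list spots with 7.92% and 7.02% against 6.72% and 7.06%, midbrain and hindbrain-list spots with 7.98% and 7.19% against 7.08% and 7.11%, white matter-list spots with 8.06% and 7.53% against 7.38% and 6.99%, choroid plexus and ependyma-list spots with 8.22% and 7.36% against 6.84% and 6.70%, and hypothalamus and amygdala-list spots with 8.52% and 7.86% against 6.95% and 7.70%. Control 1 exceeded control 2 in all 9 types. White matter-list spots numbered 489 and 545 in controls and 144 and 150 in knockouts.

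**Figure D3:**
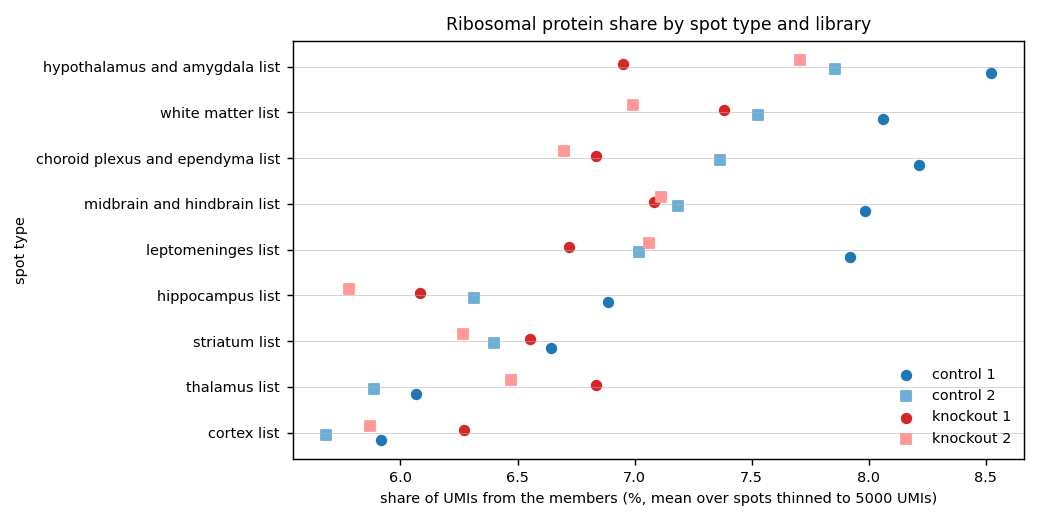
Mean share of UMIs from the 83 members (%, horizontal axis, which does not start at 0) over spots thinned to 5000 UMIs, for 9 spot types (rows) and 4 libraries (points). Knockouts lie right of both controls in thalamus-list spots and left of both in choroid plexus and ependyma-list spots.

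In some spot types, though not in all, many members differed from the other typed spots beyond the spread between libraries. Each type was tested against the other typed spots of the same library, with library as a block. In cortex-list spots 56 of 83 members were lower (10.4% of all genes tested were), with a median log2 difference of -0.23, and in hippocampus-list spots 59 were lower (13.8% of all genes), median -0.19. In white matter-list spots 73 were higher (14.0% of all genes), median 0.27, in hypothalamus and amygdala-list spots 54 (5.84% of all genes), median 0.22, and in midbrain and hindbrain-list spots 52 (14.2% of all genes), median 0.18. Leptomeninges-list spots had 16 higher (7.95% of all genes), choroid plexus and ependyma-list spots had 2 higher, among them Rpl21 (0.751% of all genes), and striatum-list spots had Rps12 lower (1.23% of all genes). In thalamus-list spots edgeR called 0 members (3.34% of all genes in either direction) and DESeq2 called 0. At an unadjusted p under 0.05, 23 members were lower, beside 1905 of 13359 genes in either direction. The median over all genes tested lay between -0.01 and 0.01 in every one of these comparisons. Each of them takes controls and knockouts together, although the groups did not differ alike in every type. By the interaction test below, the knockout change was more positive for 22 members in thalamus-list spots and for 24 in cortex-list spots. Whether members were lower in thalamus-list spots of controls alone was not tested.

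Single members showed how far the types lie apart. Rpsa stood at 1061, 978, 931 and 850 CPM in white matter-list spots of control 1, control 2, knockout 1 and knockout 2, and at 702, 662, 645 and 613 CPM in their other typed spots, a log2 difference of 0.54 (SE 0.052, edgeR adjusted p = 2.7e-08). Rps12 was higher there by 0.55 and Rps29 by 0.44. In every library the white matter-list value exceeded the other. Rpl22l1 had the largest difference of hypothalamus and amygdala-list spots, 1014, 823, 611 and 785 CPM against 661, 532, 493 and 504 CPM (log2 difference 0.55, SE 0.062, adjusted p = 1.9e-06), and Rpl6 and Rpl21 were higher there by 0.39 and 0.37. Rps6 had the smallest p in midbrain and hindbrain-list spots, at 792, 719, 688 and 653 CPM against 572, 588, 530 and 505 CPM (0.38), with Rpl36 (0.34) and Rps27a (0.32), which encodes ubiquitin joined to a ribosomal protein. Leptomeninges-list spots had Rpl22 higher by 0.36, Rps27l by 0.46 and Rps29 by 0.30. In cortex-list spots Rps20, Rpl36 and Rpl14 were lower by 0.33, 0.38 and 0.30 on the log2 scale, and in hippocampus-list spots Rps27a and Rpl26 by 0.36 and 0.33.

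Without control 1, control 2, knockout 1 and knockout 2 in turn, the calls were 33, 15, 55 and 37 for cortex-list spots, 25, 31, 63 and 28 for hypothalamus and amygdala-list spots, 38, 51, 29 and 34 for midbrain and hindbrain-list spots and 0, 4, 30 and 5 for leptomeninges-list spots. For hippocampus-list spots they were 60, 52, 52 and 50, and for white matter-list spots 56, 66, 67 and 71.

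Cell-type lists gave a second division of the same thinned spots. The top 10% of each library's spots by UMIs of a list, called rich in it, were compared with the rest of the library. Neuron-rich spots had 79 members lower (9.90% of all genes tested were lower), with a median log2 difference of -0.35. Oligodendrocyte-rich spots, whose list equals the white matter list, had 76 higher (15.5% of all genes), median 0.37. Spots rich in activated phagocyte genes had 69 higher and 1 lower (19.1% and 14.2% of all genes), median 0.25. Spots rich in reactive astrocyte genes had 55 higher and 1 lower (16.0% and 10.9% of all genes), median 0.20. Endothelium-rich spots had 29 higher and 1 lower (10.9% and 5.49% of all genes), median 0.10. The median over all genes was between -0.01 and 0.00 in each comparison.

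In shares of UMIs, neuron-rich spots held 5.58% and 5.39% in controls and 5.75% and 5.29% in knockouts, against 7.35%, 6.86%, 6.69% and 6.53% in other spots of the same libraries. Oligodendrocyte-rich spots held 8.39%, 8.12%, 7.502% and 7.23% against 7.04%, 6.55%, 6.49% and 6.32%. Every library showed both orders. Phagocyte-rich spots held 8.19%, 7.51%, 7.15% and 7.02% against 7.06%, 6.62%, 6.53% and 6.34%, and endothelium-rich spots 7.58%, 6.99%, 6.79% and 6.70% against 7.13%, 6.68%, 6.57% and 6.38%. Reactive astrocyte-rich spots held 8.35%, 7.69%, 6.88% and 6.63% against 7.05%, 6.60%, 6.56% and 6.38%. For that class the gap was wider in both controls than in both knockouts. Mitochondrial genes were lower in neuron-rich spots, 6.13%, 8.73%, 7.46% and 8.24% against 8.21%, 11.8%, 9.21% and 9.12%, and their part in the difference was not tested. Since a share of UMIs is relative, a higher member share and less of other RNA cannot be told apart. Depth before thinning differed as well. Neuron-rich spots were deeper than other spots, with medians of 21318, 24962, 18570 and 19864 UMIs against 18204, 22163, 13198 and 16475. In the other 4 classes rich spots were shallower in every library, for reactive astrocytes with medians of 12045, 17645, 9011 and 11409 UMIs against 19284, 22874, 14646 and 17827. The part of this depth in the members' differences was not tested. In controls the limit for reactive astrocyte-rich spots was only 3 list UMIs per spot, against 21 in knockouts, so that class is drawn on few molecules there.

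**Figure D4:**
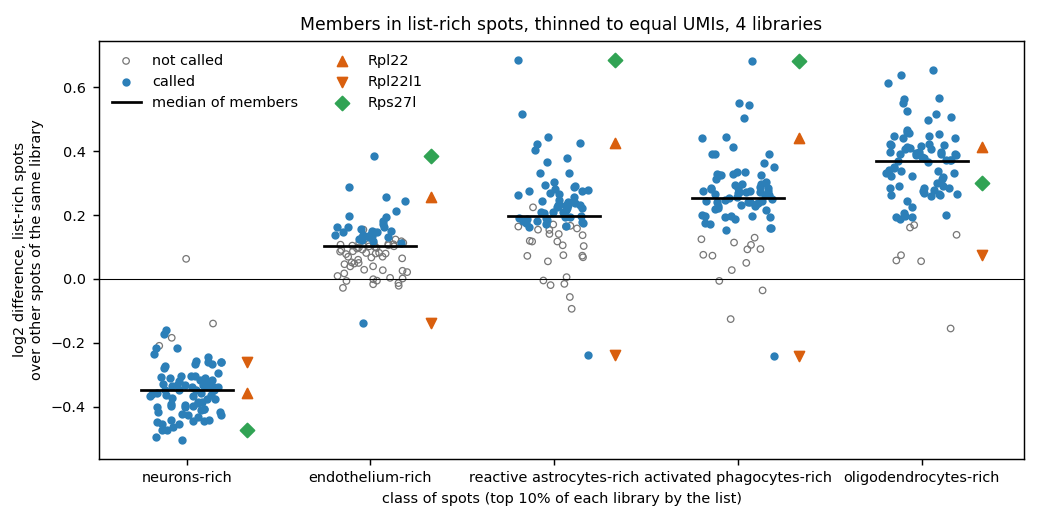
Log2 difference (vertical axis) of each of the 83 members between list-rich spots and other spots of the same 4 libraries, for 5 cell-type lists; filled points passed edgeR's test, bars are medians, and triangles and diamonds beside each column repeat Rpl22, Rpl22l1 and Rps27l. All members but Rps19bp1 (0.06) lie below 0 in neuron-rich spots (median -0.35), and most lie above 0 in the other classes, with Rpl22l1 below 0 where Rpl22 is above it in 3 of the classes.

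Rps29, a zinc-binding small subunit protein, was among the 3 higher or lower members with the smallest p in 4 of the 5 classes. In neuron-rich spots it stood at 1209.98, 1709, 1465 and 1371 CPM in control 1, control 2, knockout 1 and knockout 2 against 1901, 2489.9, 1988 and 1755 CPM in other spots (log2 difference -0.50, SE 0.048, edgeR adjusted p = 2.8e-07), and in phagocyte-rich spots at 2561, 2979, 2645 and 2377 against 1676, 2247, 1786 and 1580 CPM (0.54). Although its controls lie far apart, the order of the spots was the same in all 4 libraries. Rps27 (-0.47) and Rpl37a (-0.44) had the next smallest p in neuron-rich spots, where Rps12 had the lowest log2 difference (-0.50). In oligodendrocyte-rich spots Rpsa, Rps12 and Rps20 led with 0.65, 0.64 and 0.61.

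The paralogues Rpl22 and Rpl22l1 had log2 differences of opposite sign in the phagocyte-rich, reactive astrocyte-rich and endothelium-rich classes. In phagocyte-rich spots Rpl22 stood at 426, 360, 381 and 374 CPM against 291, 275, 283 and 282 CPM (log2 difference 0.44, edgeR adjusted p = 1.4e-05), whereas Rpl22l1 stood at 580, 508, 420 and 395 against 683, 547, 495 and 518 CPM (-0.24, adjusted p = 0.0039). In reactive astrocyte-rich spots the values were 0.43 for Rpl22 and -0.24 for Rpl22l1, and in endothelium-rich spots 0.26 and -0.14; each passed the test, and Rpl22l1 was the 1 member called lower in each of these 3 classes. In neuron-rich spots both were lower, by 0.36 and 0.26 on the log2 scale, and in oligodendrocyte-rich spots Rpl22 was higher by 0.41 while Rpl22l1 differed by 0.07 without passing. In control 2, Rpl22l1 was not lower in reactive astrocyte-rich spots, at 553 against 547 CPM. The difference between the paralogues was not itself tested. Rps27l, a p53 target gene, was higher by 0.69 in reactive astrocyte-rich spots (138, 130, 109 and 119 against 80.8, 80.0, 76.4 and 69.9 CPM) and by 0.68 in phagocyte-rich spots, the largest positive value of any member in both. Rplp0 was higher by 0.52 in reactive astrocyte-rich spots and by 0.24 in endothelium-rich spots. In neuron-rich spots 4 members did not pass: Rps19bp1 (0.06), Rpl36al (-0.14), Rps27rt (-0.18) and Rpl7l1 (-0.21).

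The neuron, oligodendrocyte and phagocyte counts stayed within 59 to 79 when any 1 library was left out. The 30 endothelium-rich calls became 12, 19, 7 and 11 without control 1, control 2, knockout 1 and knockout 2, and the 56 reactive astrocyte-rich calls became 37, 36, 38 and 35.

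The knockout comparison was repeated with spot types and UMIs per spot matched. Equal numbers of spots per type were drawn from each library, 1699 in all, each thinned to 5000 UMIs. Of 83 members 9 fell and 1 rose, against 16.5% and 17.1% of all genes tested, and the median was -0.08, with -0.00 for all genes. Rps19bp1 fell by 0.61, Rpl4 by 0.45 (730 and 708 against 501 and 549 CPM, edgeR adjusted p = 0.0013) and Rpl35 by 0.51, and Rps27rt rose by 0.38. The count was 13 without control 1, 23 without control 2, 2 without knockout 1 and 3 without knockout 2, and 4 with no filter on low counts.

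Within single spot types the sign of the members' median differed. In choroid plexus and ependyma-list spots 13 members fell (4.75% of all genes did) and the median was -0.26; Rpl35 fell by 0.71, Rpl22l1 by 0.59 (888 and 706 against 511 and 540 CPM, edgeR adjusted p = 0.0036) and Rpl4 by 0.59. In hippocampus-list spots 8 fell (8.90% of all genes), median -0.16, with the smallest p in Rpl4 (-0.55), Rpl35 (-0.61) and Rpl12 (-0.43). In hypothalamus and amygdala-list spots 3 members fell (4.11% of all genes), among them Rpl4 by 0.56 and Rpl35 by 0.58, with a median of -0.22. In midbrain and hindbrain-list spots Rpl35 fell by 0.49 (3.34% of all genes), median -0.10. White matter-list spots had Rpl4, Rpl35 and Rpl22l1 lower, by 0.48, 0.56 and 0.42, and Rplp0 higher by 0.35 (6.59% of all genes lower, 8.52% higher), median -0.07. In leptomeninges-list spots edgeR called 0 members (3.87% of all genes in either direction) and DESeq2 called 0. The members' median there was -0.18. At an unadjusted p under 0.05, 16 members were lower, beside 1676 of 9924 genes in either direction.

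Cortex, striatum and thalamus stood differently. In cortex-list spots 4 members rose and 5 fell (13.5% and 13.4% of all genes), with a median of 0.02. Rplp0 rose there from 291 and 317 to 421 and 399.5 CPM (0.43, SE 0.11, edgeR adjusted p = 0.0033), with Rps27rt (0.55) and Rpl13a (0.36), while Rps19bp1, Rpl4 and Rpl36al fell by 0.88, 0.49 and 0.38. In striatum-list spots Rps27rt rose by 0.60 and Rpl4 fell by 0.47 (7.22% of all genes higher, 6.01% lower), median -0.03. In thalamus-list spots 13 members rose (5.56% of all genes did), and the median was 0.20. Rpl11, which binds Mdm2 when ribosome assembly fails, rose from 694 and 612 to 993 and 914 CPM (0.55, SE 0.12, adjusted p = 0.00025), Rpl32 from 752 and 742 to 1043 and 1019 CPM (0.46) and Rpl8 from 635 and 514 to 805 and 787 CPM (0.48). The knockout libraries lay above both controls in each of these 3 genes.

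**Figure D5:**
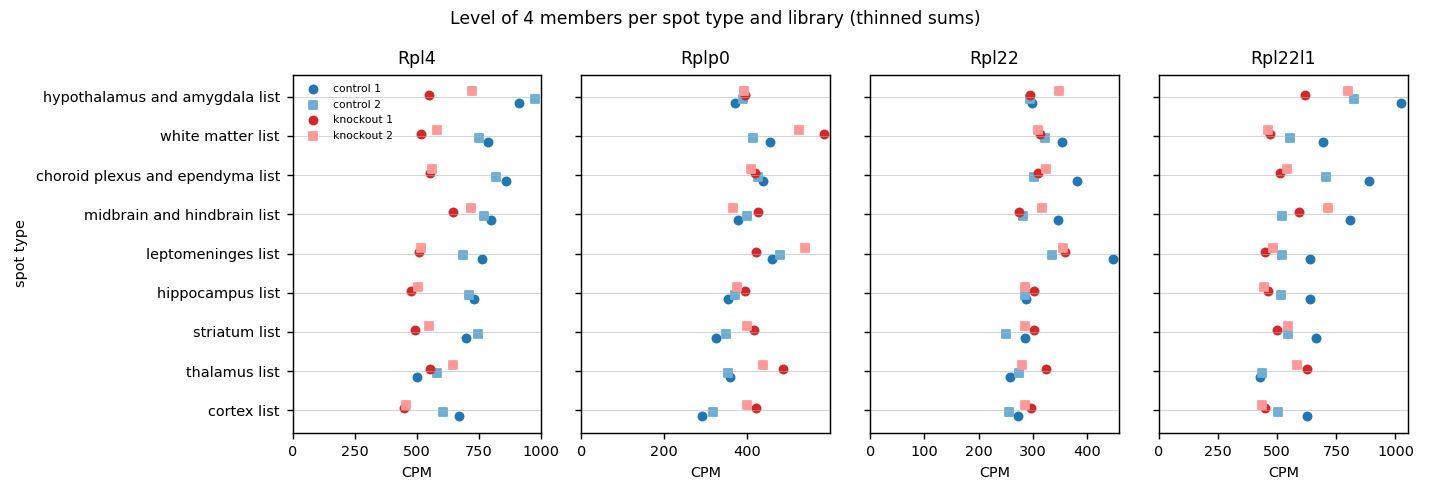
Level (CPM on thinned sums scaled with TMM, horizontal axes from 0) of Rpl4, Rplp0, Rpl22 and Rpl22l1 in 9 spot types (rows), 1 point per library. Rpl4 is lower in both knockouts in 8 types but not in thalamus-list spots, and Rpl22l1 is higher in both knockouts in thalamus-list spots and lower in both in choroid plexus and ependyma-list spots.

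Rpl4 passed the test as lower in 6 of the 9 types. In thalamus-list spots it stood at 501 and 582 CPM in controls and 553 and 647 CPM in knockouts (0.14), and in midbrain and hindbrain-list spots at 801 and 773 against 645 and 719 CPM (-0.21), without passing in either. Rpl35 passed as lower in 6 types too, with control 2 above control 1 in every type. Rpl22l1 passed as lower in 4 types and as higher in 1, the thalamus-list spots, at 428 and 437 against 626 and 586 CPM (0.48, SE 0.12, edgeR adjusted p = 0.0029). Rpl22 passed in none, with values from -0.13 to 0.18. Oligodendrocyte genes gave 66.9 and 64.7 UMIs per thinned thalamus-list spot in controls and 34.3 and 30.3 in knockouts, and reactive astrocyte genes 1.61 and 0.936 against 10.5 and 9.47; their part in the members' values was not tested.

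Counts within a type depended on which library was left out. They are given without the share of all genes called in the same setting. Without control 1, control 2, knockout 1 and knockout 2 in turn they were 14, 14, 2 and 2 in cortex-list spots, 8, 28, 1 and 1 in hippocampus-list spots and 13, 6, 2 and 8 in thalamus-list spots. They were 17, 31, 1 and 0 in choroid plexus and ependyma-list spots, 9, 17, 0 and 1 in hypothalamus and amygdala-list spots, 6, 10, 2 and 2 in white matter-list spots, 4, 8, 0 and 0 in midbrain and hindbrain-list spots, 1, 6, 0 and 0 in striatum-list spots and 1, 4, 0 and 1 in leptomeninges-list spots. DESeq2 called 1 member in thalamus-list spots and 4 in choroid plexus and ependyma-list spots.

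Whether the knockout change differs between spot types was tested as an interaction, added after the data had been seen. In thalamus-list spots, against other typed spots, the change of 22 members was more positive (1.68% of all genes were called in either direction), with the smallest p in Rpl22l1 (difference 0.76, SE 0.12, edgeR adjusted p = 4.7e-05), Rpl4 (0.61) and Rpl37 (0.43). Among cortex-list spots 24 were more positive (6.77% of all genes), with the smallest p in Rps29 (0.38), Rps28 (0.40) and Rplp0 (0.38). Rps29 stood at 1409.6 and 1943 CPM in cortex-list spots of controls and 1859 and 1675 CPM in those of knockouts, against 1949 and 2499 and 1913 and 1710 CPM elsewhere, so that controls differed between cortex and other spots and knockouts hardly did. In the other types the calls were Rps2 in hippocampus-list spots (-0.23; 3.17% of all genes), 1 member in striatum-list spots (1.02%), Rpl4 in midbrain and hindbrain-list spots (0.31; 1.92%) and Rpl22l1 in choroid plexus and ependyma-list spots (-0.35; 0.964%). EdgeR and DESeq2 called 0 members in hypothalamus and amygdala-list spots (1.48% of all genes by edgeR), white matter-list spots (2.06%) and leptomeninges-list spots (0.407%). At an unadjusted p under 0.05 edgeR had 7 lower, 2 higher with 2 lower, and 0 members, in that order. Beside them, 1453 of 13451, 1611 of 13379 and 726 of 13529 genes passed that limit in either direction. The thalamus count was 41 without control 1, 61 without control 2, 0 without knockout 1 and 1 without knockout 2, and the cortex count 12, 22, 3 and 9; DESeq2 gave 2 and 3.

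Between list-rich and other spots the knockout change of few members differed. In oligodendrocyte-rich spots Rpl22 and Rps27l were more negative, by 0.35 and 0.55 on the log2 scale (edgeR adjusted p = 0.019 and 0.022; 4.18% of all genes were called in either direction). Rps27l stood at 117 and 123 CPM in oligodendrocyte-rich spots of controls and 70.4 and 82.4 CPM in those of knockouts, against 81.5 and 79.4 and 78.8 and 72.4 CPM in other spots. The control values alone stood above those of other spots by a wide margin. The limit for oligodendrocyte-rich spots was 156 and 170 list UMIs per spot in controls, against 78 and 64 in knockouts. The part of this limit in the members' differences was not tested. In reactive astrocyte-rich spots Rpl22l1 was more negative by 0.39 (adjusted p = 0.031; 2.53% of all genes), with 634 and 553 CPM in controls and 372 and 388 CPM in knockouts, against 683 and 547 and 504 and 522 CPM elsewhere. EdgeR and DESeq2 called 0 members in neuron-rich (1.86% of all genes by edgeR), phagocyte-rich (1.35%) and endothelium-rich spots (0.0146%). At an unadjusted p under 0.05 edgeR had 30, 1 and 0 members higher and none lower. Beside them, 1658 of 13604, 1324 of 13736 and 818 of 13741 genes passed that limit in either direction. Without knockout 1 both the oligodendrocyte and the astrocyte calls were lost, as they were with DESeq2; the astrocyte call was also lost without knockout 2, where the oligodendrocyte count was 1, as it was without control 2, and the astrocyte count was 2 and 3 without control 1 and control 2.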

How the data were processed

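Members, lists and comparisons were chosen with earlier results of these data known. The deposited values are raw UMI counts by gene and spot barcode, not normalized by the authors; per the submitters' processing notes they were made with Space Ranger on mm10, and per the file headers the matrices come from Cell Ranger version 4. The Space Ranger version is not given in the sources used here. Spot positions and tissue calls were not used here, so spots with at least 1000 UMIs were kept. No column of another series was present. No doublet caller was run.

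Library sums of counts went into edgeR 4.0.16 under R 4.3.3 (TMM factors 0.988, 0.962, 1.01 and 1.04, filterByExpr, quasi-likelihood, Benjamini-Hochberg over all genes tested, threshold 0.05). CPM values use TMM-scaled totals, except in the rule for members. A standard error is the log2 change divided by the root of its F statistic. For spot types and classes, deep spots (5000 UMIs or more) were thinned to 5000 (seed 1). A spot's score per list was the mean z score of log counts, scaled to unit SD; the highest score of at least 0.5 gave the type, and 7.00% to 14.6% of such spots per library stayed untyped. Comparisons of spots of 1 library had library as a block. DESeq2 1.42.0 was an alternative, with other scalings, filters, spot limits and leaving out each library. Scripts were tested on simulated data. The libraries of a group differed by more than counting noise (chi-square per degree of freedom 51.6 in controls and 15.7 in knockouts), so each is 1 sample. Over the members alone this statistic was 325 in controls and 47.3 in knockouts. Replicate numbers did not pair the libraries (correlation of deviations of same-numbered libraries -0.23 over 17546 genes and -0.52 over the members). For control 1 with knockout 2 the values were 0.23 and 0.52, the same with the sign reversed, as 2 libraries per group require. What lies behind the crossed pairs was not tested.

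Named members were up to 8 called per direction with the smallest p in whole sections, up to 3 per direction in each other comparison, the 3 smallest changes, members with a set role (Rpsa, the P stalk, Rps6, Rpl10, Rps19bp1 and paralogue pairs) and those around the level limit; from each pathway list up to 2 called genes per direction. Rps28, Rps29 and Rps27 (control 2), Rps12 and Rps20 in whole sections where outside that rule, and the members that did not pass in neuron-rich spots were chosen after their values were seen. The values of some single genes are not reported here, while counts and medians include them.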

Additional observations from a re-analysis of the deposited data

Results flagged for a closer look

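The share of UMIs from members was lower in the deepest than in the shallowest spots of both controls (-0.502 and -1.21 percentage points) and higher in the deepest spots of both knockouts (0.757 and 1.17 percentage points). The difference between the groups was not tested.

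The knockout change differed between kinds of spots, by a test of the difference itself, in the following members. It was more negative in reactive astrocyte-rich spots for 1 member, Rpl22l1 (-0.39), and in oligodendrocyte-rich spots for 2 members, Rpl22 (-0.35) and Rps27l (-0.55). In cortex-list spots the knockout change differed for 24 members (6.77% of all genes), with the smallest p in Rps29 (0.38), Rps28 (0.40) and Rplp0 (0.38). In thalamus-list spots it differed for 22 (1.68% of all genes), with the smallest p in Rpl22l1 (0.76), Rpl4 (0.61) and Rpl37 (0.43). Each of the remaining types had 1 member or none called. They were Rps2 in hippocampus-list spots (-0.23, beside 3.17% of all genes) and 1 in striatum-list spots (1.02%). Rpl4 was called in midbrain and hindbrain-list spots (0.31, beside 1.92%) and Rpl22l1 in choroid plexus and ependyma-list spots (-0.35, beside 0.964%). The comparisons of spot types share the spots that serve as the other typed spots, so they are not independent of each other.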

How the results depend on the processing

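With 2 libraries per group, most counts depend on single libraries; a lone library left in a group is assumed to vary like the other group. The causes of these shifts were not tested. Member counts under the alternative settings, here and above, stand without the share of all genes called in the same setting. A shift of the members and a shift of all genes cannot be told apart from them. In whole sections the count of lower members (12) was 19 with DESeq2, 11 of them shared, 3 with library totals alone, 19 with no filter, 31 with spots thinned to 1000 UMIs, 11 of them shared, and 2 to 23 without 1 library; the higher count was 0 to 3 without 1 library. The members' median was -0.045 with library totals alone and -0.22 with thinned spots. The replicate numbers share only a number: with the replicate block 5 members were lower, and with crossed pairs as a block, added after seeing the data, 16. Type-matched sums gave 4 lower with no filter and 2 to 23 without 1 library, and 8 with the replicate block. Among 29 named members in whole sections, none turned its direction past the threshold under these 14 settings. Without mitochondrial genes the mean member share was 7.49% in controls and 7.10% in knockouts.

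Knockout change within types, with DESeq2 and then the range without 1 library: cortex 4 (2 to 14), hippocampus 2 (1 to 28), striatum 1 (0 to 6), thalamus 1 (2 to 13), hypothalamus and amygdala 1 (0 to 17), midbrain and hindbrain 0 (0 to 8), white matter 1 (2 to 10), choroid plexus and ependyma 4 (0 to 31); leptomeninges had 0 to 4. Requiring a lead of 0.5 over the second list gave 8 for thalamus, 0 for midbrain and hindbrain and 23 for choroid plexus and ependyma. Types against other typed spots gave 35 with DESeq2 for hypothalamus and amygdala (25 to 63 without 1 library), 8 for leptomeninges (0 to 30), 0 for striatum (0 to 1) and 0 for choroid plexus and ependyma (0 to 4), the latter pair also 0 with the lead required; cortex had 15 to 55, midbrain and hindbrain 29 to 51, and thalamus 0 to 1, with 5 under the lead. Endothelium-rich calls were 6 with DESeq2 (7 to 19 without 1 library), and reactive astrocyte-rich calls 25 with the top 20% (35 to 38).

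Interactions with the top 20% gave 7 for neurons, 8 for reactive astrocytes and 4 for oligodendrocytes; for the latter pair DESeq2 gave 0, leaving out 1 library 0 to 3 and 0 to 2, and for reactive astrocytes the top 5% gave 0. Type interactions with DESeq2 gave 3 for cortex (3 to 22 without 1 library), 2 for thalamus (0 to 61) and 0 for hippocampus (0 to 1), striatum (0 to 7), midbrain and hindbrain (0 to 1) and choroid plexus and ependyma (0 to 2); hypothalamus and amygdala had 0 to 13.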
